A study of Homo sapiens with 6 samples.

Results

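The genes described here encode subunits and assembly factors of respiratory complex I. They were taken from the table by symbol, as NDUF followed by letters and then a number up to the end of the symbol. This gave 45 of the 26372 gene symbols, of which 38 are subunits by symbol and 7 are assembly factors of the NDUFAF series. RNA was measured in SH-SY5Y cells, which come from a human neuroblastoma and resemble immature neurons, in 2 groups of 3 libraries each. The shTDP43 cells carried a lentiviral short hairpin RNA against TDP-43, the RNA- and DNA-binding protein encoded by TARDBP, and the shNC cells carried a control hairpin in the same U6-driven vector. Puromycin selection of both groups used 2 µg/mL over 2 weeks, with 1 µg/mL afterwards, and the labels name no other hairpin, rescue or clone. Whether each library had its own infection or culture is not stated in the labels. The p-values therefore measure only the spread between these libraries, which may be technical.

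Complex I, or NADH:ubiquinone oxidoreductase, is the entry point of the mitochondrial respiratory chain. Its matrix arm takes electrons from NADH and passes them through flavin and iron-sulfur clusters to ubiquinone, and its membrane arm pumps protons. Core subunits carry the chemistry, accessory subunits surround them, and assembly factors help to build the complex but are absent from the finished enzyme. The core subunits of the membrane arm are made from mitochondrial DNA. The table held 0 symbols of the MT-ND series, which names these subunits, so they were not analysed here.

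Levels are given in FPKM, fragments per kilobase of transcript, as the authors computed it with a scaling between libraries that is not stated. TARDBP itself had 36.0, 33.1 and 34.8 FPKM in the shTDP43 libraries, against 56.1, 56.2 and 56.6 FPKM in the shNC libraries. The shTDP43 mean was 61.5% of the shNC mean, with a log2 difference of -0.69 (SE 0.03; limma adjusted p = 2.84e-06). By exact permutation of the libraries, two-sided, p was 0.1, and no smaller p is possible with 3 libraries a group. The values hold no read totals, so the depth is unknown. The correlation across tested genes was 0.993 to 0.995 within a group and 0.980 to 0.982 between the groups. The replicates shTDP43 3 and shNC 1 stood apart in the small nucleolar RNA SNORD3A, with 8551 and 11541 FPKM against 137209 to 552747 FPKM in the other 4 libraries. Of 8 noradrenergic neuroblastoma markers 7 had a mean of at least 1 FPKM, TH being the exception. Their summed level was 1670.0 to 1716 FPKM in shTDP43 and 1460.0 to 1467 FPKM in shNC. Most of this difference lay in CHGA, at 512 to 528 FPKM in shTDP43 and 291 to 300.4 FPKM in shNC. PHOX2A, at 99.8 to 119 FPKM in shTDP43 and 131 to 139 FPKM in shNC, and HAND2, at 415 to 431 FPKM in shTDP43 and 444 to 449 FPKM in shNC, lay the other way. The summed level of 6 mesenchymal markers was 94.6 to 96.4 FPKM in shTDP43, against 162 to 164 FPKM in shNC, and its part in the results below was not tested. The summed levels were at most 3.19 FPKM for 5 Schwann and glial markers, 1.24 FPKM for 3 blood markers, with HBB at 0 in all 6 libraries, 3.62 FPKM for 3 epithelial markers and 0.0202 FPKM for 2 endothelial markers. In bulk RNA, fewer cells of a type and less RNA per cell cannot be told apart.

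All 45 genes had a mean of at least 1 FPKM and were tested, with values on the log2(FPKM + 1) scale and p-values adjusted over all 13263 tested genes. A gene is called higher or lower in shTDP43 at a limma adjusted p under 0.05. Of the 38 subunits, 10 were lower and 1 was higher in shTDP43. These are 26.3% and 2.63% of the subunits, whereas 19.6% of all tested genes were lower and 18.5% were higher. In either direction 11 subunits were called (28.9%), against 38.1% of all tested genes. These shares varied with level. At a mean of 100 FPKM or more, 30.5% of tested genes were lower and 20.4% higher, and 2 of 9 subunits were lower. From 20 to under 100 FPKM the shares were 21.0% and 27.0%, with 7 of 25 subunits lower and 1 higher. From 5 to under 20 FPKM they were 18.0% and 19.3%, with 1 of 4 subunits lower. The changes were small. The largest took NDUFB4, a membrane arm subunit, to 72.6% of the shNC level, and the median log2 difference of the subunits was -0.06, against 0.00122 over all tested genes. By sign alone, 29 of the 38 differences were negative and 9 positive. Summed over the 38 subunits, the level was 3033, 2985 and 2942 FPKM in the shTDP43 libraries, against 3200.3, 3168 and 3229 FPKM in the shNC libraries. Each shTDP43 sum lay below each shNC sum, and the shTDP43 mean was 93.4% of the shNC mean. The sums over all tested genes were 1166400, 1002200 and 906940 FPKM in shTDP43, against 1006400, 1436300 and 1591400 FPKM in shNC. SNORD3A made up an uneven part of these. With SNORD3A set aside, each shTDP43 total also lay below each shNC total, so a lower sum is not particular to the subunits. On average these totals without SNORD3A fell by a larger share than the subunit sum did, and this difference was not tested.

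Of the 7 NDUFAF assembly factors, 2 were lower and 1 was higher (28.6% and 14.3%), against 19.6% and 18.5% of all tested genes. In either direction 3 of 7 were called (42.9%), near the 38.1% of all tested genes. The median log2 difference of the assembly factors was 0.07, but -0.02 without shNC replicate 2. Their summed level was 103, 109 and 103 FPKM in shTDP43, against 109, 98.7 and 105 FPKM in shNC, and these ranges overlapped. Assembly factors were expressed at a lower level than subunits. The median of the gene means over the 6 libraries was 8.93 FPKM for assembly factors (range 5.04 to 42.4 FPKM) and 66.8 FPKM for subunits (range 12.7 to 351 FPKM). The difference in response between the 2 kinds of gene was not tested.

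The counts depend on the libraries. Without shTDP43 replicate 3 and shNC replicate 1, both low in SNORD3A, 4 of 38 subunits were lower and 0 higher, and 1 of 7 assembly factors was lower and 0 higher. In this fit, which has fewer libraries, 1563 of 13259 tested genes were higher and 1760 lower, or 25.1% in either direction. With 1 library left out in turn, between 7 and 12 subunits were lower, between 0 and 1 higher, between 0 and 1 assembly factors lower, and between 1 and 2 higher. Of all tested genes, 30.3% to 33.0% were called in these fits.

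**Figure D1:**
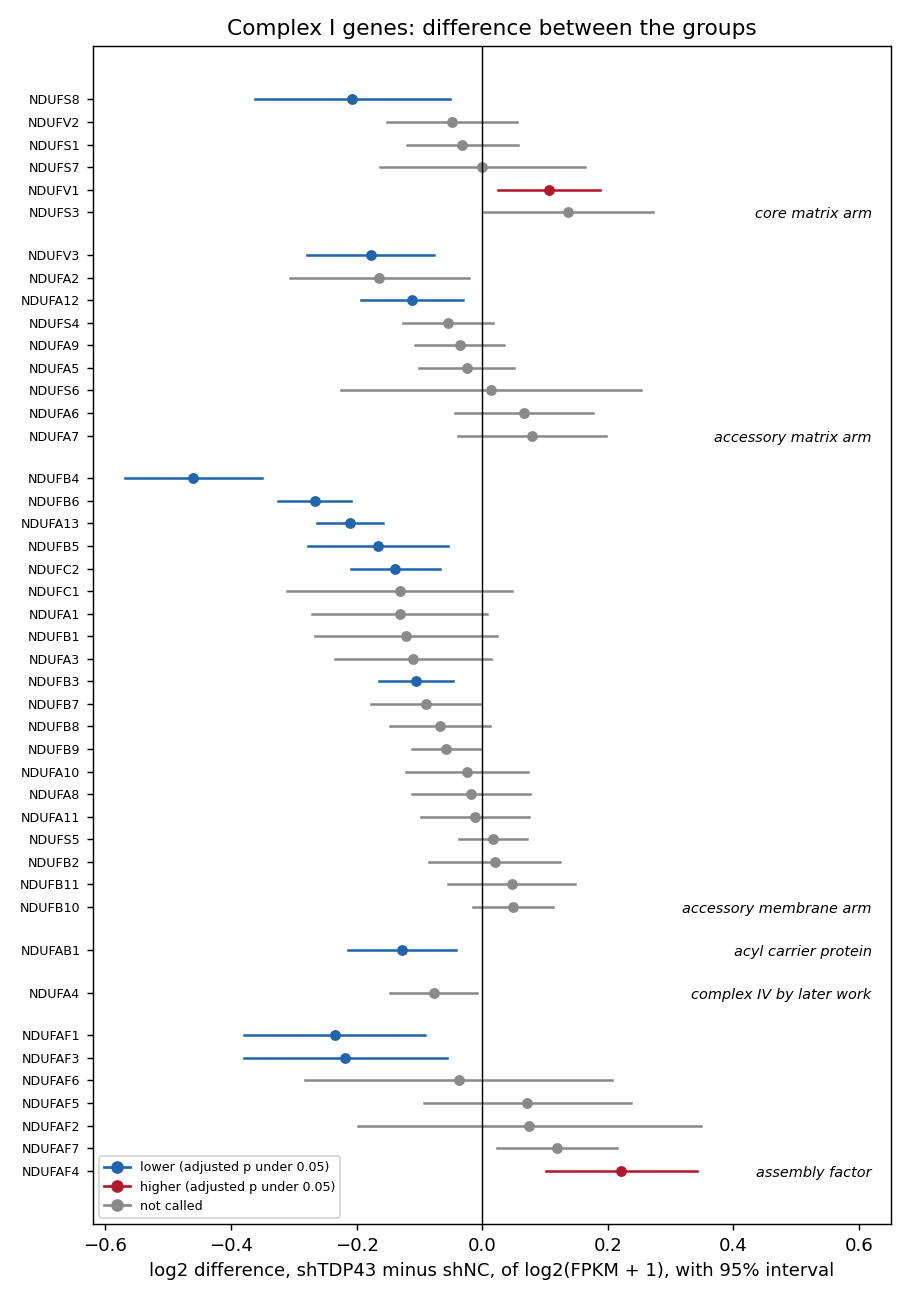
Log2 difference (shTDP43 minus shNC, on the log2(FPKM + 1) scale) of 44 of the 45 genes, ordered by class, with limma's 95% interval; blue is lower, red is higher and grey did not pass an adjusted p of 0.05. The 10 subunits called lower lie in every subunit class but NDUFA4, and NDUFB4 lies furthest from 0 at -0.46.

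Transcript length moved with the direction of change across the whole table. Subunit genes are short, with a median longest transcript of 1350 bases, against 3614 bases over all tested genes with a known length. Among tested genes with transcripts under 1000 bases the median log2 difference was -0.06, with 23.9% lower and 8.39% higher, and the 14 subunits in this class had a median of -0.08. In the class from 1000 to 2000 bases the median was -0.02 for all genes and -0.05 for 10 subunits. In the class from 2000 to 4000 bases it was 0.00158 for all genes and -0.05 for 8 subunits, and from 4000 bases upwards 0.01 and -0.03 for 6 subunits. After each library was corrected for length and GC content, 7 subunits were lower and 4 higher, and the subunit median was -0.05. Of these 4, NDUFA7, NDUFB10 and NDUFS5 were not called before the correction.

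Of the 7 core subunits of the matrix arm that are encoded in the nucleus, 1 was higher and 1 lower. This is 14.3% in each direction, under the 18.5% higher and 19.6% lower of all tested genes. NDUFV1, which binds NADH and the flavin, had 32.6, 30.8 and 32.0 FPKM in shTDP43, against 29.7, 30.4 and 28.3 FPKM in shNC. Each shTDP43 library lay above each shNC library, at a mean of 31.8 ± 0.898 FPKM against 29.5 ± 1.06 FPKM (SD, n = 3 each) and a log2 difference of 0.11 (SE 0.04; limma adjusted p = 0.0436). NDUFS8, an iron-sulfur subunit near the ubiquinone end of the chain, had 38.4, 31.2 and 36.2 FPKM in shTDP43, against 41.2, 41.9 and 39.2 FPKM in shNC. Its groups did not overlap, although shTDP43 replicate 2 lay well below the other replicates, and the shTDP43 mean was 86.6% of the shNC mean (log2 difference -0.21, SE 0.07; limma adjusted p = 0.0415). Both calls sit close to the threshold. NDUFV1 was no longer called without shTDP43 replicate 1, shTDP43 replicate 3, shNC replicate 1 or shNC replicate 3, with a limma adjusted p of up to 0.129. NDUFS8 was called among the fits that leave out 1 library only in the fit without shTDP43 replicate 1, and its limma adjusted p reached 0.109 in the others.

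None of the other core subunits was called. NDUFS3, which sits in the part of the matrix arm that binds ubiquinone, had 35.1, 39.8 and 35.4 FPKM in shTDP43, against 31.2, 33.4 and 35.4 FPKM in shNC, and these ranges overlapped (log2 difference 0.14, 95% interval 0.00228 to 0.27; limma adjusted p = 0.0999). NDUFS1, the largest iron-sulfur subunit, had 29.6, 28.9 and 26.9 FPKM in shTDP43, against 29.8, 28.7 and 28.9 FPKM in shNC. NDUFV2, the iron-sulfur partner of NDUFV1, had 75.9, 71.8 and 76.1 FPKM in shTDP43, against 77.5, 72.3 and 81.9 FPKM in shNC. NDUFS7, which carries the last iron-sulfur cluster before ubiquinone, had 13.7, 13.4 and 11.1 FPKM in shTDP43, against 12.9, 13.0 and 12.2 FPKM in shNC. For NDUFS1, NDUFV2 and NDUFS7 the ranges overlapped and the means lay at 97.8%, 96.6% and 100.3% of shNC.

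Of the accessory subunits of the membrane arm, which make up 20 of the 38 subunits, 6 were lower and 0 higher. This is 30.0% lower, against 26.3% of all subunits and 19.6% of all tested genes. Their median log2 difference was -0.10, and 16 of the 20 differences were negative. NDUFB4 had 168, 158 and 151 FPKM in shTDP43, against 219.8, 207 and 231 FPKM in shNC. Every shTDP43 value of NDUFB4 was thus far below every shNC value, and the log2 difference was -0.46 (SE 0.05; limma adjusted p = 0.000209). NDUFB6 had 44.9, 44.2 and 45.3 FPKM in shTDP43, against 54.2, 53.0 and 55.3 FPKM in shNC. Its libraries were tightly grouped, at 44.8 ± 0.548 FPKM and 54.2 ± 1.12 FPKM (SD, n = 3 each), which puts shTDP43 at 82.8% of shNC (log2 difference -0.27, SE 0.03; limma adjusted p = 0.000129). NDUFA13, also known as GRIM19 and linked to cell death as well as to complex I, is among the most abundant of these messages. It had 292, 293 and 286 FPKM in shTDP43, against 340.2, 339 and 329 FPKM in shNC, and fell to 86.4% of shNC (log2 difference -0.21, SE 0.02; limma adjusted p = 0.000276). NDUFB4, NDUFB6 and NDUFA13 were the 3 of the 14 called genes that kept their call in all 15 alternative fits.

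NDUFB5, NDUFC2 and NDUFB3, further accessory subunits of the membrane arm, fell less. NDUFB5 had 64.4, 59.0 and 61.8 FPKM in shTDP43, against 71.2, 72.6 and 64.6 FPKM in shNC, so that the groups came close without overlapping. It stood at 88.9% of shNC (limma adjusted p = 0.0278) and was not called without shTDP43 replicate 2, shTDP43 replicate 3, shNC replicate 1 or shNC replicate 2 (limma adjusted p of up to 0.0885). NDUFC2 had 29.1, 30.1 and 29.02 FPKM in shTDP43, against 33.5, 32.2 and 31.7 FPKM in shNC, which is 90.6% of shNC (log2 difference -0.14, SE 0.03; limma adjusted p = 0.00915). NDUFB3 lies outside the rule for genes to name and is given because it passed. It had 67.4, 66.4 and 67.1 FPKM in shTDP43, against 74.3, 70.5 and 71.7 FPKM in shNC (92.8% of shNC; limma adjusted p = 0.0131). NDUFC2 and NDUFB3 kept their calls when any 1 library was left out, but not when both libraries low in SNORD3A were, and NDUFB3 also lost it after the correction for length and GC content (limma adjusted p = 0.284).

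Of the other 14 accessory subunits of the membrane arm, none passed the test. NDUFS5, the most abundant complex I message measured, had 347, 362 and 350.1 FPKM in shTDP43, against 345, 349 and 353 FPKM in shNC. The NDUFS5 ranges overlapped, with a log2 difference of 0.02 (95% interval -0.04 to 0.07). After the correction for length and GC content NDUFS5 was called higher (log2 difference 0.099, limma adjusted p = 0.0293). NDUFA3, a small membrane subunit, had 191, 182 and 179 FPKM in shTDP43, against 218, 190.2 and 188 FPKM in shNC. Its ranges overlapped through shTDP43 replicate 1, and the log2 difference was -0.11 (95% interval -0.23 to 0.01; limma adjusted p = 0.142). The remaining 12 were NDUFA1, NDUFA8, NDUFA10, NDUFA11, NDUFB1, NDUFB2, NDUFB7, NDUFB8, NDUFB9, NDUFB10, NDUFB11 and NDUFC1. Their differences ran from -0.13 in NDUFC1 and NDUFA1 to 0.05 in NDUFB10.

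**Figure D2:**
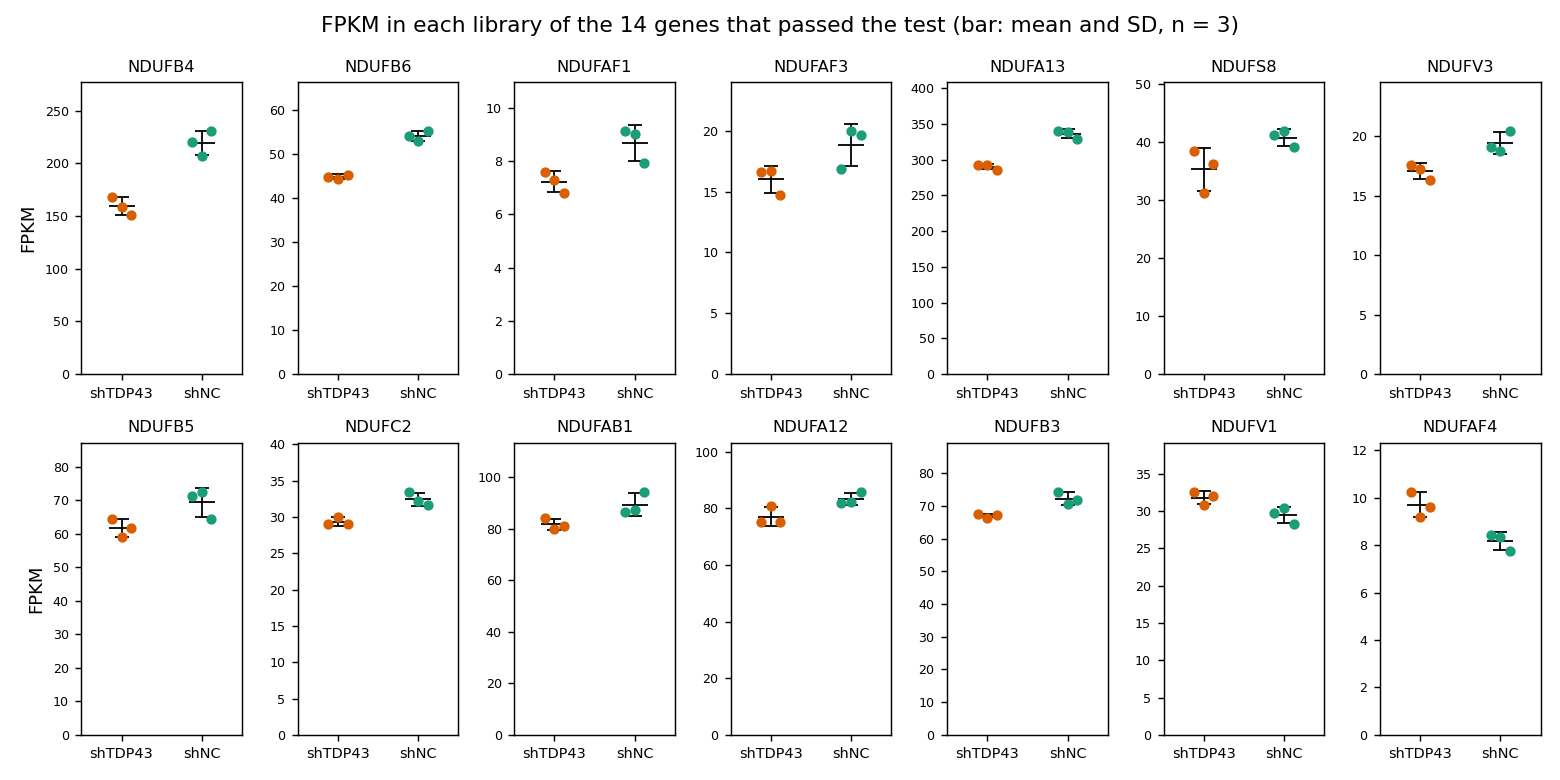
FPKM of each library for the 14 called genes, with shTDP43 (orange) to the left of shNC (green) and bars at the mean and SD of 3 libraries; each panel starts at 0. In all 14 genes the groups do not overlap, and the distance is widest in NDUFB4.

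In the accessory subunits of the matrix arm 2 of 9 were lower and 0 higher. This is 22.2% lower, near the 19.6% of all tested genes, and 22.2% in either direction, against 38.1%. NDUFV3, which binds next to the NADH site, had 17.6, 17.2 and 16.3 FPKM in shTDP43, against 19.1, 18.7 and 20.4 FPKM in shNC. Each shTDP43 library was lower than each shNC library, at 87.8% of shNC on average (log2 difference -0.18, SE 0.04; limma adjusted p = 0.0140). NDUFA12, which is named outside the rule because it passed, had 75.2, 80.9 and 75.0 FPKM in shTDP43, against 81.8, 82.1 and 85.9 FPKM in shNC. Its groups were separated by less than 1 FPKM, between shTDP43 replicate 2 and shNC replicate 1, and among the fits that leave out 1 library its call (limma adjusted p = 0.0374) was kept only without shTDP43 replicate 2. After the correction for length and GC content its log2 difference was -0.05, against -0.11 before it, and it was not called (limma adjusted p = 0.272). NDUFV3 kept its call without any 1 library and lost it without both libraries low in SNORD3A (limma adjusted p = 0.0782). NDUFA2, NDUFA5, NDUFA6, NDUFA7, NDUFA9, NDUFS4 and NDUFS6 were not called, with log2 differences from -0.16 in NDUFA2 to 0.08 in NDUFA7. The interval was widest in NDUFS6 (-0.23 to 0.25), whose shNC libraries had 93.9, 96.8 and 126 FPKM.

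NDUFAB1, the mitochondrial acyl carrier protein, is part of both arms and also serves fatty acid and lipoic acid synthesis. It had 84.0, 79.7 and 81.2 FPKM in shTDP43, against 86.5, 87.1 and 94.3 FPKM in shNC. The groups did not overlap and the shTDP43 mean was 91.4% of shNC (log2 difference -0.13, SE 0.04; limma adjusted p = 0.0282). It was not called without shTDP43 replicate 2, shTDP43 replicate 3 or shNC replicate 3, with a limma adjusted p of up to 0.0869, nor after the correction for length and GC content, where the log2 difference was -0.07 (limma adjusted p = 0.190). NDUFA4 carries a complex I symbol but was later assigned to cytochrome c oxidase, complex IV. It had 76.5, 71.4 and 72.3 FPKM in shTDP43, against 76.3, 77.5 and 78.5 FPKM in shNC, and shTDP43 replicate 1 lay within the shNC range. It was not called (log2 difference -0.08, 95% interval -0.15 to -0.01, limma adjusted p = 0.0749). Leaving it out therefore cannot change the counts of called subunits.

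Among all 38 subunits, 14 had every shTDP43 library below every shNC library and 1 had every shTDP43 library above. Over all tested genes the shares of such genes were 25.4% and 25.3%, or 50.7% in either direction. Of the 27 subunits that were not called, 22 had a 95% interval that lay within a 1.2-fold change in either direction. The 5 others were NDUFA1, NDUFA2, NDUFB1, NDUFC1 and NDUFS3, whose intervals reached past a change of that size. The SD of a member between libraries of a group was 3.73% of its mean in shTDP43 and 4.29% in shNC, as the median over the 45 genes.

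**Figure D3:**
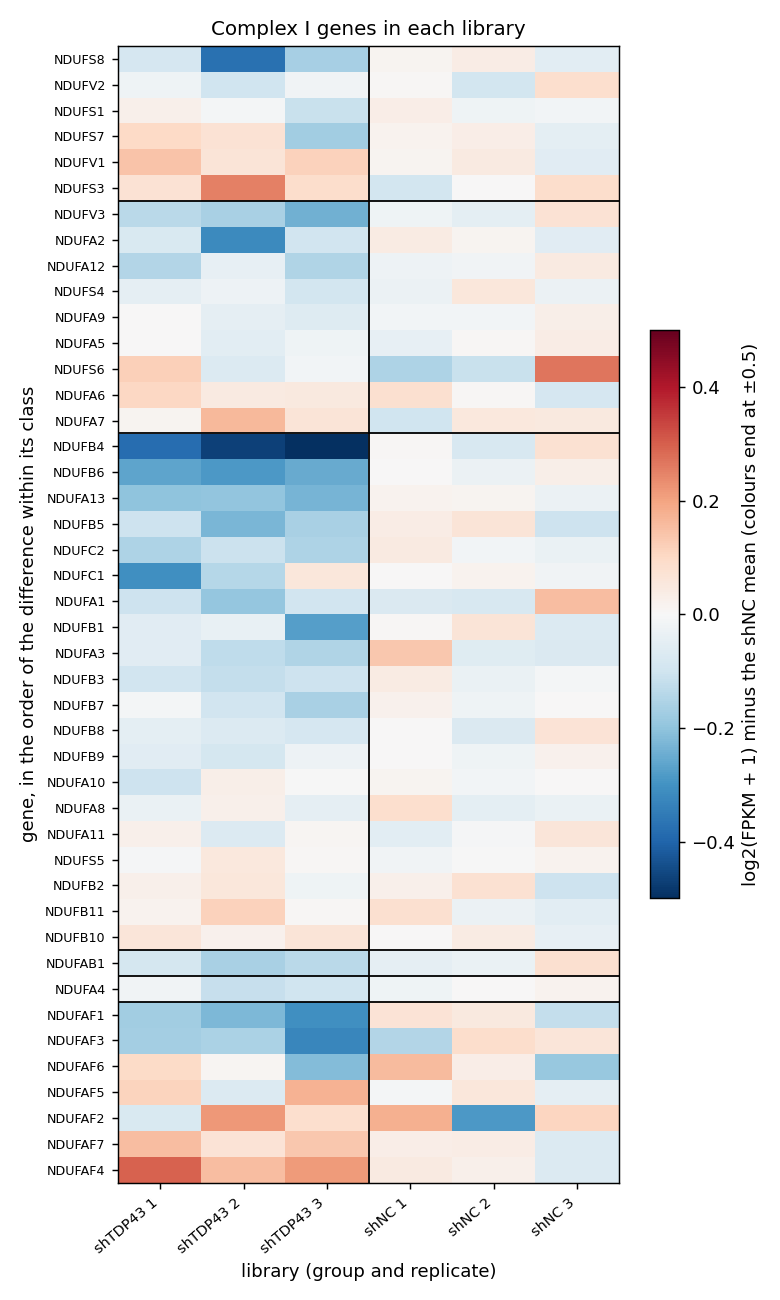
The same 44 genes (rows, by class and difference) in each of the 6 libraries (columns), as log2(FPKM + 1) minus the mean of the 3 shNC libraries; blue is below and red above that mean, and lines part the classes and the groups. NDUFB4, NDUFB6 and NDUFA13 are below it in all 3 shTDP43 libraries and NDUFAF4 is above it in all 3, while NDUFAF2 and NDUFS6 vary within the groups.

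NDUFAF1, NDUFAF3 and NDUFAF4 were the assembly factors that passed. NDUFAF4, which works with NDUFAF3 in building the ubiquinone-binding part of the matrix arm, had 10.3, 9.20 and 9.63 FPKM in shTDP43, against 8.44, 8.32 and 7.75 FPKM in shNC. All shTDP43 libraries were above all shNC libraries, at 9.69 ± 0.528 FPKM against 8.17 ± 0.372 FPKM (SD, n = 3 each), which is 118.6% of shNC (log2 difference 0.22, SE 0.05; limma adjusted p = 0.0117). It kept its call without any 1 library, with a limma adjusted p of up to 0.0400, and lost it without both libraries low in SNORD3A, at a limma adjusted p of 0.0513 and a log2 difference of 0.25. NDUFAF3 had 16.6, 16.7 and 14.8 FPKM in shTDP43, against 16.8, 19.98 and 19.6 FPKM in shNC. The NDUFAF3 groups were parted by little, since shNC replicate 1 lay just above shTDP43 replicate 2, and the shTDP43 mean was 85.1% of shNC (log2 difference -0.22, SE 0.07; limma adjusted p = 0.0403). Among the fits that leave out 1 library, it was called only in the fit without shNC replicate 1, and its limma adjusted p reached 0.121 in the others.

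NDUFAF1 belongs to the group of assembly factors that builds an intermediate of the membrane arm together with ACAD9, ECSIT and TMEM126B. It had 7.57, 7.27 and 6.80 FPKM in shTDP43, against 9.13, 9.01 and 7.91 FPKM in shNC. Its groups did not overlap, at 83.1% of shNC (log2 difference -0.24, SE 0.06; limma adjusted p = 0.0195). It was not called without shTDP43 replicate 3, shNC replicate 1 or shNC replicate 2, with a limma adjusted p of up to 0.0671. NDUFAF1 also lost its call without both libraries low in SNORD3A (log2 difference -0.165, limma adjusted p = 0.154). In that fit NDUFAF3 kept its call (limma adjusted p = 0.0108).

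The other 4 NDUFAF genes were not called. NDUFAF7, a mitochondrial methyltransferase, had 19.0, 17.8 and 18.8 FPKM in shTDP43, against 17.4, 17.5 and 16.1 FPKM in shNC. Its groups did not overlap (log2 difference 0.12, 95% interval 0.02 to 0.21; limma adjusted p = 0.0534). NDUFAF5, which modifies NDUFS7, had 5.35, 4.61 and 5.64 FPKM in shTDP43, against 4.84, 5.12 and 4.71 FPKM in shNC. NDUFAF6 had 5.62, 5.23 and 4.32 FPKM in shTDP43, against 5.90, 5.33 and 4.43 FPKM in shNC. NDUFAF2, a paralog of NDUFA12 that helps in late assembly, had 38.9, 47.8 and 43.5 FPKM in shTDP43, against 46.5, 33.5 and 44.3 FPKM in shNC. The groups overlapped in NDUFAF5, NDUFAF6 and NDUFAF2, and the interval of NDUFAF2 was the widest of the assembly factors (-0.20 to 0.35).

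A list of 14 complex I assembly factors whose symbols do not match the pattern had 3 members lower and 2 higher, which is 35.7% called, near the 38.1% of all tested genes, with a median log2 difference of -0.05. ACAD9, a partner of NDUFAF1, had 10.3, 10.1 and 10.7 FPKM in shTDP43, against 12.2, 12.3 and 12.4 FPKM in shNC, and fell to 84.3% of shNC (limma adjusted p = 0.00199). ECSIT, another partner of NDUFAF1 with a role in immune signalling, stood at 89.9% of shNC (limma adjusted p = 0.0455), a call kept among the fits that leave out 1 library only without shTDP43 replicate 1. COA1, an assembly factor of the inner membrane, fell to 87.7% of shNC (limma adjusted p = 0.00400). FOXRED1, a flavoprotein assembly factor, had 10.4, 10.3 and 11.1 FPKM in shTDP43, against 8.79, 9.64 and 8.25 FPKM in shNC, and rose to 119.4% of shNC (limma adjusted p = 0.0139). AIFM1, a flavoprotein of the intermembrane space also known for cell death, stood at 110.2% of shNC (limma adjusted p = 0.0366), a call kept among those fits only without shTDP43 replicate 3. TMEM126B, TIMMDC1, NUBPL, TMEM186, TMEM70, TMEM261, ATP5SL, LYRM2 and C17orf89, the former symbol of NDUFAF8, were not called. Without both libraries low in SNORD3A, 2 of the 14 were lower and 0 higher.

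Other respiratory genes were counted in the same fit, in which 19.6% of all tested genes were lower and 18.5% higher. Of 10 complex IV subunits 9 were lower and 0 higher, and of 15 ATP synthase subunits (complex V) 8 were lower and 1 higher, with median log2 differences of -0.19 and -0.09. Of 9 complex III genes 3 were lower and 0 higher (median -0.09), and of the 4 complex II genes 1, SDHD, was higher and 0 lower (median -0.03). The SDHD call was lost without shTDP43 replicate 1, shTDP43 replicate 2, shNC replicate 1 or shNC replicate 3 (limma adjusted p of up to 0.0624). Proteins of the mitochondrial ribosome (77 genes; 12 lower and 10 higher, median -0.02) and of the cytosolic ribosome (78 tested; 12 lower and 12 higher, median -0.00143) were called in both directions. Set tests were not run, so whether complex I differs from these lists was not tested. Under quantile normalization 6 of the complex IV genes were lower. Without both libraries low in SNORD3A, 5 complex V genes were lower, 4 genes of the mitochondrial ribosome were lower and 3 higher, and 6 genes of the cytosolic ribosome were lower. With 1 library left out, 4 to 10 genes of the mitochondrial ribosome were lower and 5 to 7 higher, and 8 to 10 genes of the cytosolic ribosome were lower and 7 to 12 higher. For the cytosolic ribosome, 20 genes were higher after the correction for length and GC content, 7 were higher without the variance trend, and 6 were lower and 16 higher under quantile normalization. Complex III had 5 genes lower without shTDP43 replicate 1.

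Of 12 listed genes that regulate mitochondrial gene expression, 10 were tested, with 4 higher and 1 lower and a median log2 difference of 0.11. Of all tested genes 18.5% were higher and 19.6% lower. TFAM, the factor that packages mitochondrial DNA, had 21.4, 21.3 and 21.8 FPKM in shTDP43, against 16.9, 17.7 and 17.9 FPKM in shNC, and rose to 122.7% of shNC (limma adjusted p = 0.000362). PPRC1, a coactivator of the PGC-1 family, rose to 123.9% of shNC (limma adjusted p = 0.000577). TFB2M, a mitochondrial transcription factor, rose to 117.5%, and its relative TFB1M, an rRNA methyltransferase, fell to 88.8% of shNC (limma adjusted p = 0.00494 and 0.00521). The TFB1M call was lost without both libraries low in SNORD3A (limma adjusted p = 0.0566). GABPB1, a subunit of the ETS-type activator GABP, rose to 115.2% of shNC (limma adjusted p = 0.0178), a call lost without shNC replicate 1 or shNC replicate 3 (limma adjusted p of up to 0.0568). NRF1, an activator of respiratory genes, stood at 94.9% of shNC and was not called (limma adjusted p = 0.375), nor were GABPA, ESRRA, YY1 and POLRMT. The coactivator genes PPARGC1A and PPARGC1B had at most 0.0193 and 0.39 FPKM in any library and were below the level tested.

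**Figure D4:**
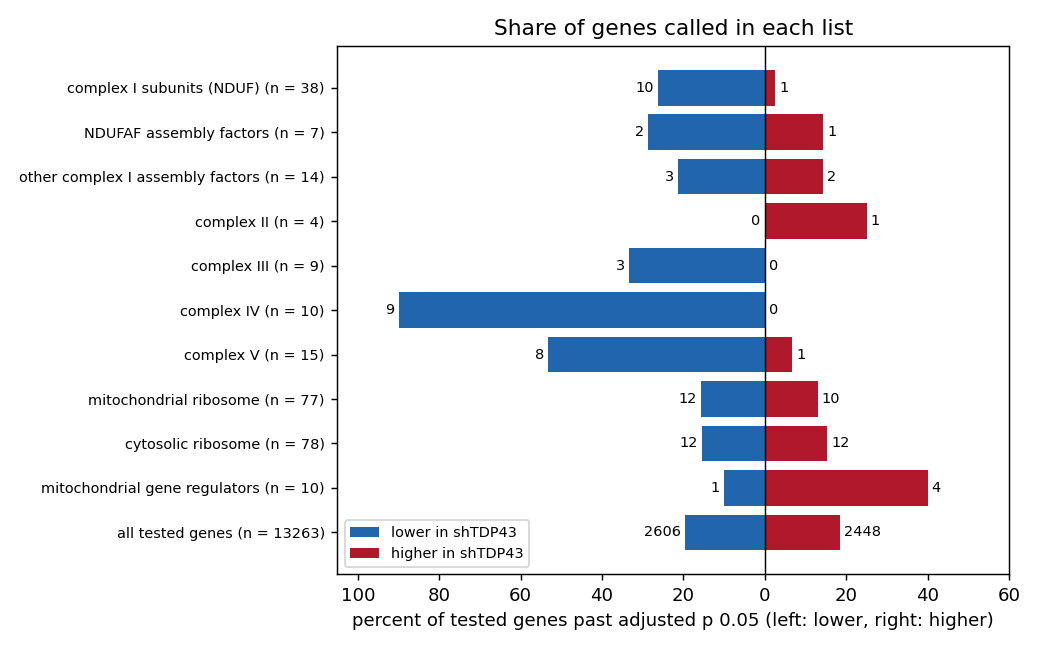
Percent of the tested genes of each list that were lower (blue, left) or higher (red, right) in shTDP43 at a limma adjusted p under 0.05, with the number of genes beside each bar and all 13263 tested genes at the bottom. Complex I subunits had 10 genes lower and 1 higher, against shares of 19.6% and 18.5% among all tested genes.

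Promoters are shown for 4 of the genes, NDUFB4 and NDUFB6 because they had the largest falls among the subunits, and NDUFV1 and NDUFAF4 because they were the 2 members called higher. RefSeq's sequence of GRCh38.p14, the assembly that hg38 also names, was available for 39 of the 45 genes. Each line gives the 250 bases before the annotated gene start, 5′ to 3′ on the strand of the gene, with matches to the letters CATGCGC (NRF1), CCGGAAG (ETS) or AAGATGG (YY1), on either strand, in capitals. NDUFB4 lies at chr3:120596086-120596335 (plus strand), NDUFB6 at chr9:32573160-32573409 (minus strand), NDUFV1 at chr11:67606686-67606935 (plus strand) and NDUFAF4 at chr6:96897892-96898141 (minus strand).
NDUFB4: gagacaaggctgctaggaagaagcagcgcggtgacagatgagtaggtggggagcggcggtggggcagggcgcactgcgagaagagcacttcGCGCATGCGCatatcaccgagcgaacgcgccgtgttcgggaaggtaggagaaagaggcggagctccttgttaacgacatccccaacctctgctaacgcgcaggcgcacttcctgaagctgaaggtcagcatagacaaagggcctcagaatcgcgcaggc
NDUFB6: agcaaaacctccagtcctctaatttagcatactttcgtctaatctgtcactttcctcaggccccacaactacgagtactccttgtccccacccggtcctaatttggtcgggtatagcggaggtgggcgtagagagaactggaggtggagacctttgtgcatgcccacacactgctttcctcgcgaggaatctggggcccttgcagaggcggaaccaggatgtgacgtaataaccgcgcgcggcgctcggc
NDUFV1: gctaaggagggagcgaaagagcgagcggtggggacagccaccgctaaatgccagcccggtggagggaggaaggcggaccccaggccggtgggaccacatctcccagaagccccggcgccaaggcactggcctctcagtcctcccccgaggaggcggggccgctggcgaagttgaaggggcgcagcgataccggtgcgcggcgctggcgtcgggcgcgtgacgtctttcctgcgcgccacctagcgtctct
NDUFAF4: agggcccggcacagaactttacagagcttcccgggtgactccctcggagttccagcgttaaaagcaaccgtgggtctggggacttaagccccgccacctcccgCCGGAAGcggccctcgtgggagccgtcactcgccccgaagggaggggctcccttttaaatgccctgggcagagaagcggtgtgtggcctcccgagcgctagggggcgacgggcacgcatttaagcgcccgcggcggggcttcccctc
NDUFB4 held the NRF1 letters on both strands in 1 overlapping run, NDUFAF4 held the ETS letters, and NDUFB6 and NDUFV1 held no match in these windows. In windows that also include 50 bases after the start, the NRF1 letters were found in 6 of 33 subunit promoters (18.2%), in 1 of the 8 promoters of subunits called lower, and in 2 of 6 NDUFAF promoters, NDUFAF4 and NDUFAF5. They were found in 7.84% of promoters of tested genes and in 4.67% of all RefSeq promoters. The ETS letters were in 5 of 33 subunit promoters (15.2%) and in 19.8% of promoters of tested genes (10.7% of all), and the YY1 letters in 7 of 33 (21.2%) and 7.92% (6.06% of all). The matches are descriptions of these letters and not binding sites.

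Some values are uncertain because the sources used here do not say how strand and reads with several matches were handled. In GENCODE 29, 18 of the 38 subunits have at least 1 pseudogene named after them, and NDUFB4 has 12. Without these 18 subunits, 6 of the remaining 20 were lower and 1 higher, with a median log2 difference of -0.07. NDUFAF4 has 4 such pseudogenes. One of them, NDUFAF4P1, had 0.533, 0.327 and 0.398 FPKM in shTDP43, against 0.987, 0.496 and 0.796 FPKM in shNC. Exons of NDUFB6 overlap SMIM27 on the opposite strand, listed under an older symbol at 5.04 FPKM in shTDP43 and 5.98 FPKM in shNC on average. Exons of NDUFA13 overlap YJEFN3 on the same strand, at 1.46 FPKM in shTDP43 and 1.41 FPKM in shNC. Exons of NDUFAF3 overlap DALRD3, at 7.64 FPKM in shTDP43 and 8.32 FPKM in shNC, and neither SMIM27, YJEFN3 nor DALRD3 was called. The read-through transcript NDUFC2-KCTD14, which shares exons with NDUFC2, averaged 0.271 FPKM in shTDP43 and 0.296 FPKM in shNC. NDUFA4L2, a relative of NDUFA4 outside the pattern, had 0.441, 0.896 and 0.252 FPKM in shTDP43, against 0.741, 1.13 and 1.05 FPKM in shNC, and was below the level tested.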

How the data were processed

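The deposited table gives FPKM per gene symbol and library, as the authors computed it. The submitters' processing notes name TopHat2 2.1.0, SAMtools, Cuffdiff 2.2.1 and hg38. Which annotation, strand setting and scaling they used is not stated in those sources. FPKM holds no counts, so count models were not used.

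Log2(FPKM + 1) values were fitted in limma 3.58.1 (R 4.3.3), with group as the only term, a variance trend and two-sided tests. The fit covered the 13263 genes whose mean reached 1 FPKM, and Benjamini-Hochberg adjustment ran over these. No 2 libraries held identical values.

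Named genes were the NDUFAF genes, the 7 nuclear core subunits, the 6 largest falls and rises among other subunits past the threshold without overlap, the 3 most abundant subunits, NDUFA4 and NDUFAB1. The values of 1 of the 45 genes are not reported here. NDUFA12 and NDUFB3 were added after their values were seen. Members and lists were chosen with earlier results of these data known. Positions and older symbols came from RefSeq (95.6% of symbols matched), and lengths and GC content from the longest GENCODE 29 transcript.

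Alternatives were a pseudocount of 0.1, no filter or a mean of at least 5 FPKM, quantile normalization, median centring, no variance trend, a replicate block, left-out libraries and a correction for length and GC content. The main fit was tested on simulated data with the levels and spreads of these libraries. Of 50 genes raised 1.1-fold it called 6 higher, of 50 raised 1.2-fold 34, of 50 raised 1.5-fold 48 and of 50 raised 2-fold 50. It also called 7 unchanged genes. Small changes were thus often missed. Far fewer genes changed in the simulation than were called here, so these numbers need not hold for the real fit.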

Additional observations from a re-analysis of the deposited data

How the results depend on the processing

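TARDBP, NDUFB4, NDUFB6 and NDUFA13 kept their direction and call in all 15 alternative fits. The subunits called higher numbered 0 without the filter, with quantile normalization, without the variance trend and without both libraries low in SNORD3A, 4 after the correction for length and GC content, and 0 to 1 with 1 library left out. The subunits called lower numbered 6 without the filter, with quantile normalization and without the variance trend, and 4 without both libraries low in SNORD3A. They numbered 6 without members that have a named pseudogene, an alternative chosen after seeing the data. The assembly factors called higher numbered 2 with a mean of at least 5 FPKM and with median centring, 0 without both libraries low in SNORD3A, and 1 to 2 with 1 library left out (2 without shTDP43 replicate 2). Those called lower numbered 1 without the filter, without the variance trend, without both libraries low in SNORD3A and after the correction for length and GC content, and 0 to 1 with 1 library left out (0 without shTDP43 replicate 3 or shNC replicate 2). All tested genes called higher numbered 1563 without both libraries low in SNORD3A. The assembly factor median ran from -0.022 (without shNC replicate 2) to 0.066 with 1 library left out. With 1 library left out, log2 differences that changed sign ran from -0.068 to 0.16 in NDUFAF2, -0.13 to 0.052 in NDUFAF6, -0.059 to 0.0074 in NDUFS1, -0.051 to 0.086 in NDUFS7 and -0.00079 to 0.029 in NDUFS5, none of which was called in the fit of all libraries. Without both libraries low in SNORD3A they were 0.13 in NDUFAF6, 0.023 in NDUFS1 and 0.10 in NDUFS7, which was at 2.9e-05 after the correction for length and GC content. Deviations of libraries with the same replicate number correlated at -0.07, 0.06 and 0.11, so the numbers were not taken as pairs. With the replicate block 0 subunits were higher and 1 assembly factor was lower. Where calls moved, the cause was not tested. Depth is unknown, so its limit on genes of low FPKM could not be set.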
